A study of Mus musculus with 2 samples.

Results

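In the E6.5 mouse epiblast, 6418 of 2367464 autosomal 1 kb tiles that held a CpG were distal, CpG-poor and low in DNA methylation, and they are called windows here. A window started at a multiple of 1000 bases, held 5 to 15 CpGs and 40 or more reads summed over its CpGs, had a methylation level of 10% to 40%, and lay 2.5 kb or more from both ends of every RefSeq gene. The methylation level is the methylated share of the reads. The windows were chosen by this measured level, so their low levels are a description and not a finding. A total of 654388 tiles met every part of the rule except the level. They are called eligible tiles, and the windows made up 0.981% of them.

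Most CpGs of the mammalian genome are methylated, and CpG islands at gene starts are the best known exception. Away from gene starts, CpG-poor stretches with low but not absent methylation are known from many cell types, where transcription factors bind them and many act as enhancers, sequences that raise transcription of a gene at a distance. The epiblast forms the embryo proper, and its DNA gains methylation after implantation through the methyltransferases Dnmt3a and Dnmt3b. Factor binding, chromatin marks and enhancer activity were not measured in these data.

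Whole-genome bisulfite sequencing was done on hand-dissected epiblast of wild-type female (XX) C57Bl6/J embryos at embryonic day 6.5, which came from natural matings and had not been cultured. The group has 2 samples, and the 1 deposited table, whose columns name no sample, was read as their pool, so no value here has a replicate error and no groups were compared. Intervals are exact Clopper-Pearson 95% intervals, which cover counting error only. Reads of the same fragment at neighbouring CpGs are not independent molecules, so the intervals are narrower than the true error.

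The labelled tissue was checked at promoters, taken as 500 bp on either side of the annotated start. Elf5, whose promoter is methylated in the embryo proper and unmethylated in trophoblast, was at 83.8% (98 of 117 reads, interval 75.8% to 89.9%). The promoter of the pluripotency factor Pou5f1 was at 18.0%, that of Lin28b at 19.0%, that of Utf1 at 2.88% and that of Dnmt3b at 5.69%. The trophoblast factor Gata3 was also low, at 6.46%, so a low promoter did not by itself mark epiblast genes.

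A few windows held a transcription start that RefSeq annotates inside a longer gene, away from both of its ends, and these are the windows whose bases can be shown. The sequences that follow are the 250 bases before such a start, from the RefSeq promoter table of GRCm38.p6, written 5′ to 3′ on the strand of the gene. They are the 6 with the most CpGs among those that lay wholly inside a window, and each measured CpG is in capitals. They show how few CpGs carry the level of such a window.
Sgms1: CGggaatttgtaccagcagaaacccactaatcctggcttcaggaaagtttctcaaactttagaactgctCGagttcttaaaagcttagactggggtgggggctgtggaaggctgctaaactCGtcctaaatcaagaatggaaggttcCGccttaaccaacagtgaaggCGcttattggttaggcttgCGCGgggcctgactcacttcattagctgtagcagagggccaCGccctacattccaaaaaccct
Nr1h3: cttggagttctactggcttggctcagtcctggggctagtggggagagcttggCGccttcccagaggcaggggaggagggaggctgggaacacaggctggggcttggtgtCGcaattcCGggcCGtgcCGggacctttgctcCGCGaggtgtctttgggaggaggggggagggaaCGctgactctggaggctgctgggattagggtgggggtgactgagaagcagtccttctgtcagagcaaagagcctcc
Kcnj3: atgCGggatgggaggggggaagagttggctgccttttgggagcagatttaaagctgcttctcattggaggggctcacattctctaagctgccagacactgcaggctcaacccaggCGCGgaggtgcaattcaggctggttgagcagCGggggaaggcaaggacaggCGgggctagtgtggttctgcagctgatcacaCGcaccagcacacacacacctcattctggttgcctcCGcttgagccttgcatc
Frmd4a: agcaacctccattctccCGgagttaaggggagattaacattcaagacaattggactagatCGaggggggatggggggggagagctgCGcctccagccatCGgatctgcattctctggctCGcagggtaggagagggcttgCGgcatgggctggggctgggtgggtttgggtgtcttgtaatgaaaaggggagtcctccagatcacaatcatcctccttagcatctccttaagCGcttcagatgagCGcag
Entpd1: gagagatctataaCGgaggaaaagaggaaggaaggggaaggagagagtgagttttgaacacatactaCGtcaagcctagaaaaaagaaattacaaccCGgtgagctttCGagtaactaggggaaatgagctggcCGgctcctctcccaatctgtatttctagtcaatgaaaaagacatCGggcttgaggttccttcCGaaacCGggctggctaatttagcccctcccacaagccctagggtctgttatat
Clasp2: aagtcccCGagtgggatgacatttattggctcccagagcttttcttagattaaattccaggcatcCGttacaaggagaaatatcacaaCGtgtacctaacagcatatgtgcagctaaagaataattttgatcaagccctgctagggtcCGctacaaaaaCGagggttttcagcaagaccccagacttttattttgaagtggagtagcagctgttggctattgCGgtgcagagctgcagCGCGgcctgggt

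The Sgms1 sequence (chr19:32211014-32211263, minus strand) held 8 CpGs, and 9 of its 92 reads were methylated, 9.78% (interval 4.57% to 17.8%). In it, the 5 CpGs from base 122 to base 190 had no methylated read, while the CpGs at bases 1, 70 and 229 stood at 28.6%, 25% and 26.7%. Sgms1 encodes a sphingomyelin synthase. The Nr1h3 sequence (chr2:91195036-91195285, minus strand) was lowest of the 6, with 3 of 61 reads methylated, 4.92% (1.03% to 13.7%), and 6 of its 8 CpGs had no methylated read. Nr1h3 encodes the oxysterol receptor LXR alpha.

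The Kcnj3 sequence (chr2:55435720-55435969, plus strand) was at 11.4% (9 of 79 reads), and its 7 CpGs ranged from 0% to 33.3%. Kcnj3 encodes a potassium channel subunit. The Frmd4a sequence (chr2:4400726-4400975, plus strand) was at 15.6% (12 of 77), and the Entpd1 sequence (chr19:40659520-40659769, plus strand) at 17.9% (5 of 28), with single CpGs of Entpd1 resting on 2 to 5 reads. The Clasp2 sequence (chr9:113793080-113793329, plus strand) was at 24.7% (18 of 73). In Clasp2, the 2 CpGs farthest from the start were at 50% (2 of 4 reads) and 60% (3 of 5), too few reads to place them apart. The other 6 lay between 15.4% and 28.6%. In each of the 6 genes the whole window was higher than these bases, at 10.4% for Sgms1, 20.2% for Nr1h3, 14.7% for Kcnj3, 26.3% for Frmd4a, 31.8% for Entpd1 and 38.8% for Clasp2.

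Internal starts were uncommon in the windows. On the 18 chromosomes of the promoter table, 63 of 6165 windows (1.02%) held one, against 942 of 629730 eligible tiles (0.150%), and 227 windows (3.68%) lay within 1 kb of one, against 0.524% of eligible tiles. These starts belonged to 59 genes. Windows were more common among the eligible tiles that held an internal start, at 6.69% against 0.981% of all eligible tiles. Most such tiles were still not low, with a median level of 75.3%, against 78.3% for all eligible tiles. Some windows lay within 3 kb of a CpG-dense low tile, defined below, among them those shown for Sgms1, Nr1h3, Kcnj3 and Frmd4a. Of the 4988 windows without such a tile on these chromosomes, 43 (0.862%) held an internal start and 83 (1.66%) lay within 1 kb of one.

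Eligible tiles as a whole were highly methylated, with a median of 78.3% and an interquartile range of 71.4% to 84.3%. Only 148 lay under 10%, 33688 lay above 40% and under 60%, and 614134 at 60% or more. The windows fell mostly in the upper part of their range, with 810 from 10% to 20%, 1893 from 20% to 30% and 3715 from 30% to 40%, and a median of 31.8%. The upper bound of the interval was at 40% or less for 2441 windows (38%), and the median width of the interval was 20.8 percentage points. The upper bound was under 60% for all 6418, which the read minimum and the level limit fix in advance.

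**Figure D1:**
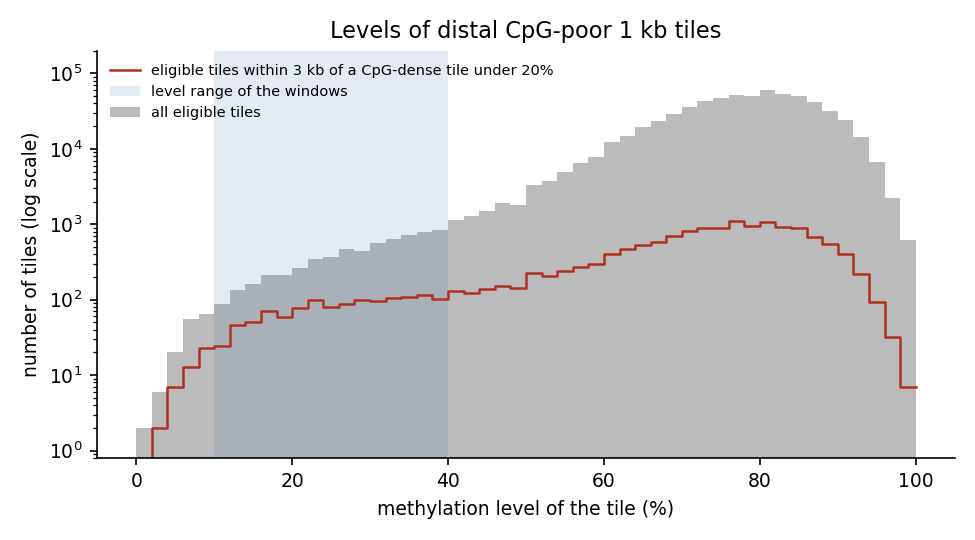
Number of eligible tiles (log scale) by methylation level in steps of 2 percentage points, with the level range of the windows shaded and the eligible tiles within 3 kb of a CpG-dense low tile as a red line. The grey bars rise towards the median of 78.3%, and the shaded range holds 6418 tiles.

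The thresholds cut through a continuous run of levels. At 10%, 40 eligible tiles lay within 1 percentage point below and 37 within 1 point above. At 40%, 561 lay within 1 point inside and 464 within 1 point outside. Of the deepest of these, tiles near Ergic1 (9.17%), Nol4 (9.87%) and Nav2 (9.88%) fell just outside the lower threshold, and windows near Chn2 (10.8%) and Hoxa3 (10.9%) just inside. Windows near Ddr1 (39.1%), Prss56 (39.4%) and Gipc2 (39.5%) were just inside the upper one, and tiles near Tyk2 (40.3%), Gse1 (40.5%) and Ehbp1l1 (40.9%) just outside.

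The windows best supported as low had an upper bound under 18%. A window (chr6:54034001-54035000) 4.93 kb from Chn2 was at 10.8% (14 of 130, interval 6.01% to 17.4%), and the tiles on either side of it were high, at 89.7% and 70.7%. A window (chr6:52196001-52197000) inside the span of the homeobox gene Hoxa3 was at 10.9% (14 of 128), and its neighbours at 19.0% and 22.4% were low as well. Others of these windows lay near Nrsn2, Prdm8, Rasgef1a, Lix1, Ror2, Efcab5 and Fcgr3, at 10.1% to 11.3%.

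The deepest windows were not the lowest. The window with most reads (chr11:109012001-109013000), 61.2 kb from the Wnt target gene Axin2, held 136 methylated of 550 reads (24.7%, interval 21.2% to 28.6%). It lay within the span of another RefSeq gene and within 3 kb of a CpG-dense low tile. A window 143 kb from H60c (chr10:3112001-3113000) had 160 of 422 (37.9%). One inside Gphn (chr12:78351001-78352000), the gene of the synaptic scaffold gephyrin, had 54 of 348 (15.5%). Both rested mainly on 1 strand. At H60c the minus strand gave 411 reads, 150 of them methylated, and the plus strand 11, of which 10 were methylated. At Gphn the plus strand gave 304 reads, 43 of them methylated, and the minus strand 44, of which 11 were methylated. Windows were somewhat deeper than eligible tiles, with a median of 80 reads against 66 and of 7.77 against 7.23 reads per CpG, and 97.3% against 97.5% of their CpGs had a read. The share of eligible tiles that were windows was 0.663% at 40 to 59 reads, 0.971% at 60 to 99, 1.63% at 100 to under 150 and 2.75% at 150 or more. Depth, CpG number and the count of windows moved together, and the part of depth was not tested.

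Inside the windows, single CpGs were a mix. Of 51278 CpGs with 5 or more reads, 21.2% were at 10% or less, 50.4% above 10% and up to 40%, 16.6% above 40% and up to 60%, and 11.8% above 60%. Over all eligible tiles the same shares were 0.497%, 4.93%, 13.4% and 81.2%. With 10 or more reads, the share above 60% in the windows was 7.99%, so some of the high CpGs rested on few reads. Each window was then cut into 500 bp parts, and 4253 had 15 or more reads in both. The parts differed by a median of 22.0 percentage points, against 8.87 in eligible tiles, and by 40 points or more in 903 windows (21.2%, against 1.58%). Both parts were under 50% in 2653 windows (62.4%), and in the others the low level did not cover the whole tile evenly. The part of counting error in these differences was not tested.

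The strands gave like levels. In the 5061 windows with 20 or more reads on each strand, the median was 30% on the plus strand and 30.4% on the minus strand, and the median absolute difference was 8.54 percentage points, against 7.41 in eligible tiles. Both strands were under 60% in 5031 of these windows (99.4%), and 28 windows differed by 40 points or more. The windows were chosen on the level of both strands summed. Like medians and few strands at 60% or more therefore follow largely from the rule and are no finding.

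CpG-dense unmethylated sequence lay next to some of the windows, which divided them into 2 kinds. A tile was called CpG-dense and low with 20 or more CpGs, 40 or more reads and a level under 20%, and 1232 windows (19.2%) had one within 3 kb, against 2.35% of eligible tiles. Beside such tiles 8.00% of 15406 eligible tiles were windows, and elsewhere 0.812% of 638982. The remaining 5186 windows are called stand-alone. This division was made after the levels had been seen. The windows beside dense tiles had a median level of 28.3%, and the stand-alone windows 32.5%.

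Median levels around the stand-alone windows rose over the first kilobases and from there stayed a little under those around eligible tiles. The tiles 1 kb to either side had medians of 65.8% and 65.5%, those at 2 kb 73.8% and 73.7%, and those at 10 kb 76.3% and 76.0%. Around the windows beside dense tiles the medians were 29.6% and 27.9% at 1 kb, 53.8% and 52.1% at 3 kb, and 72.1% and 70.7% at 10 kb. Around eligible tiles they were 78.6% and 78.7% at 1 kb and 78.3% and 78.2% at 10 kb. The levels of all reads pooled did not rise steadily. Around stand-alone windows they were 69.8% and 70.0% at 3 kb, 58.7% and 56.6% at 6 kb, and 61.2% and 60.3% at 10 kb. Around eligible tiles they were 71.1% and 71.0% at 3 kb, 67.4% and 67.3% at 6 kb, and 67.0% on either side at 10 kb. The definition of stand-alone leaves out CpG-dense low tiles up to 3 kb away and allows them beyond. The division itself asks for a low tile within 3 kb or for none, so the contrast between the 2 kinds at 1 to 3 kb follows from it and is no finding. Reads can span the border of adjoining tiles, so the nearest tiles are not independent of the window.

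**Figure D2:**
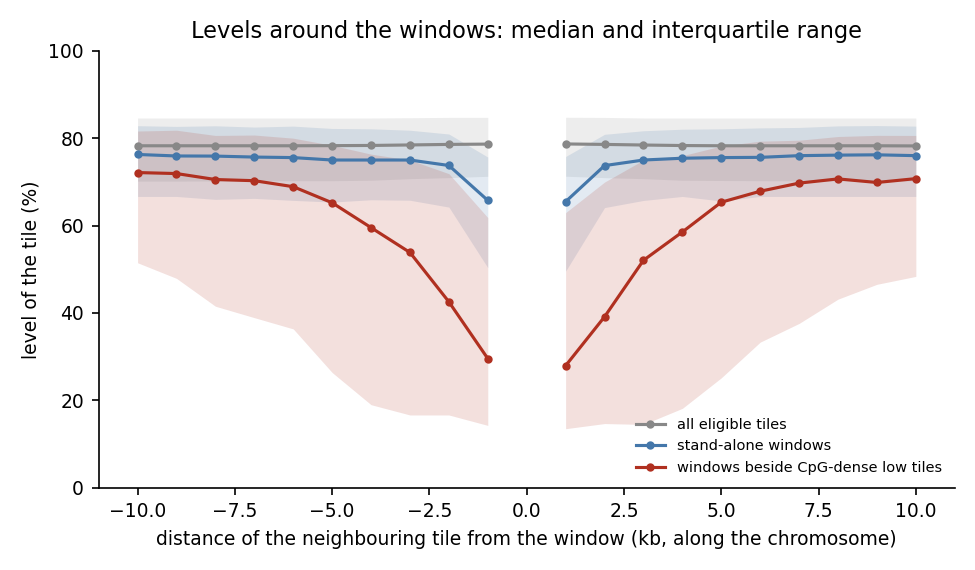
Median level (%, points) and interquartile range (shading) of tiles 1 to 10 kb to either side of stand-alone windows, windows beside CpG-dense low tiles, and all eligible tiles. At 1 kb the medians are 65.8% and 65.5% for stand-alone windows and 29.6% and 27.9% beside dense tiles, and the eligible tiles stay near 78.6%.

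Narrow dips and wider ones both occurred. Of 4150 stand-alone windows with both adjoining tiles measured, 1539 (37.1%) lay between tiles at 60% or more, and 1207 (29.1%) had an adjoining tile under 40%. Among stand-alone eligible tiles these shares were 87.8% and 2.23%. Both adjoining tiles were under 40% for 108 stand-alone windows.

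CpG number and distance went with how often an eligible tile was a window. The share was 0.691% with 5 or 6 CpGs and 1.55% with 13 to 15. It was 0.562% where the richer adjoining tile had 0 to 5 CpGs, 2.00% at 21 to 30 and 8.93% at 31 or more. It fell with distance from the nearest gene end, from 1.58% at 2.5 to 5 kb to 0.753% at 20 to 50 kb and 0.589% at 200 kb or more. Stand-alone tiles showed the same order with a shallower slope, 1.12%, 0.678% and 0.559%. The median distance was 11.1 kb for windows and 16.4 kb for eligible tiles.

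**Figure D3:**
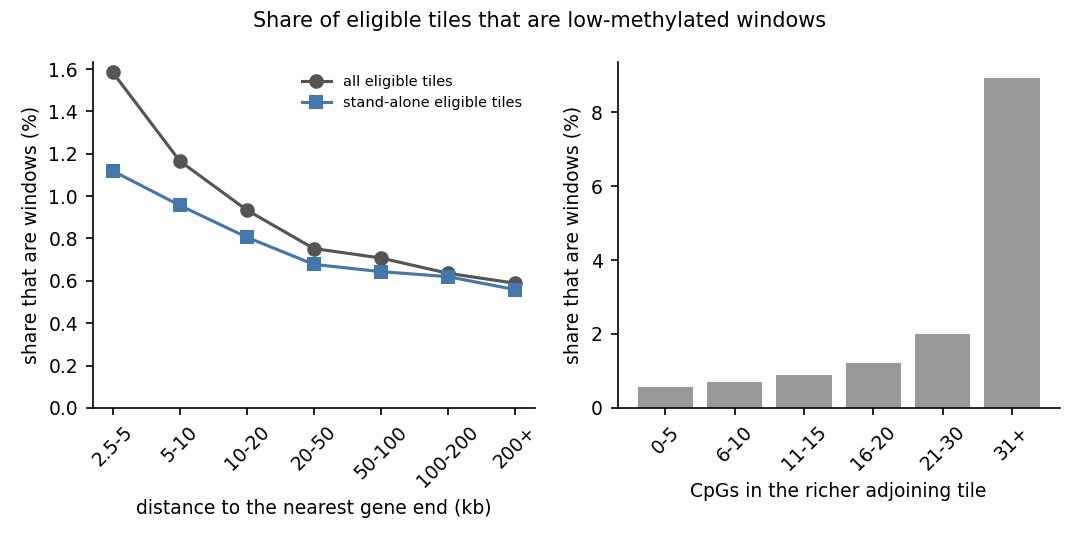
Share of eligible tiles that are windows (%) by distance to the nearest gene end (left, all and stand-alone tiles) and by the number of CpGs in the richer adjoining tile (right, bars from 0). The share falls from 1.58% to 0.589% with distance and reaches 8.93% beside tiles with 31 or more CpGs.

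Windows lay inside and between genes in near equal numbers. A total of 3362 (52.4%) had their middle within a RefSeq gene span and 3056 lay between genes, while 58.7% of eligible tiles were inside genes. As shares of eligible tiles, 0.875% inside genes and 1.13% between genes were windows, and for stand-alone tiles 0.681% and 0.995%. Within genes of known strand, 27.4% of 2121 windows lay in the 25% of the gene nearest its start and 19.6% in the 25% nearest its end, against 22.3% and 23.2% of eligible tiles. For stand-alone windows the shares were 22.8% and 22.6%, so the share near starts was close to that of eligible tiles once windows beside dense tiles were left out. By chromosome, the share of eligible tiles that were windows ranged from 0.751% on chromosome 13 to 1.23% on chromosome 11, with a mean of 0.976% ± 0.113 (SD over 19 autosomes).

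Windows also lay near one another. Joining windows whose starts were at most 3 kb apart gave 5702 loci, of which 5117 were single windows, 483 held 2 and 102 held 3 or more, so 1301 windows (20.3%) were in clusters. Adjoining tiles were counted on each side of each window, so a tile between 2 windows counts once for each. Of 6268 such eligible neighbours of windows, 984 (15.7%) were windows themselves. Counted in the same way, 0.963% of 651174 eligible neighbours of eligible tiles were windows. Of the clusters of 3 or more, 61 included a window beside a dense tile. Among stand-alone windows 17.5% were in clusters, and among the others 31.9%.

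The largest cluster lay near an axon guidance gene. The 7 windows at chr9:37452001-37462000, 18.6 kb from the receptor gene Robo3, had a joint level of 24.8% (interval 21.5% to 28.4%) and ranged from 13.3% to 36.9%. A cluster of 5 inside the span of the homeobox gene Hoxc6 (chr15:103001001-103009000) was at 29.8%, one inside Tfap2b (chr1:19212001-19221000), which encodes an AP-2 transcription factor, at 19.9%, one inside Nfix (chr8:84776001-84783000) at 26.2%, and one inside Zfp608 on chromosome 18 at 29.1%. Of these 5 clusters, those at Hoxc6, Tfap2b and Nfix consisted only of windows beside dense tiles. At Robo3, 6 of the 7 windows were beside dense tiles, and at Zfp608 2 of the 5. In contrast, the 4 windows inside Nmnat2 (chr1:153092001-153097000, 30.4%) and the 4 lying 12.5 kb from the homeobox gene Nkx3-2 (chr5:41744001-41749000, 28.7%) were all stand-alone. Clusters of 4 also lay inside Tyro3 (30.5%), Onecut3 (20.9%) and Tbx4 (27.3%). All 4 windows at Onecut3 and all 4 at Tbx4 were beside dense tiles, as was 1 of the 4 at Tyro3.

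Each window was assigned to the nearest protein-coding gene, leaving out genes whose symbol starts with Gm and a digit or ends in Rik. This gave 3837 genes, of which 2464 had 1 window and 152 had 5 or more. Single windows and clusters named in the text carry such a gene name too, so a left-out gene can lie nearer. The genes named from this ranking were chosen after their counts were seen. Nr2f2, a nuclear receptor gene, had the most, 13 windows at 12.7% to 37.1%, of which 4 were stand-alone, spread from 4.26 to 696 kb away. Pax7, a paired box factor of neural crest and muscle, had 12 windows with a median level of 25%, 9 of them inside the gene. The 11 windows nearest Myc, the growth regulator, were all stand-alone, lay 2.64 to 576 kb away and had a median of 34.4%. The number of eligible tiles nearest each gene is not given here, so these counts have no share beside them. A gene with more sequence nearest to it can be assigned more windows, so the counts are not a trait of the genes. No contact between a window and a gene was measured.

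Windows near genes were then counted within 100 kb of each gene, without asking which gene was nearest, so a window can count for several genes. Of 546488 eligible tiles within 100 kb of any protein-coding gene, 5732 (1.05%) were windows, and 9948 of 20382 such genes (48.8%) had 1 or more. The gene median was 0, and 1076 genes (5.28%) had 4 or more. Genes of the Hoxc cluster led, with 18 windows for Hoxc6 and 17 each for Hoxc4, Hoxc5 and Hoxc8, and a window can lie within reach of all of these.

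Among 11 gene lists, epiblast and neural genes had the largest shares. The lists are not fully separate. Their 237 entries are 222 genes, and Otx2, for example, is in both the epiblast and the endoderm list. The epiblast list also holds genes that act in neural tissue as well, such as Sox2 and Otx2. Near 24 autosomal genes of epiblast and formative pluripotency, 88 of 2044 eligible tiles (4.31%) were windows, 21 genes had a window and the median gene had 4. Near 23 neural ectoderm genes the figures were 82 of 1789 (4.58%), 21 genes and a median of 3, and near 26 primitive streak and mesoderm genes 64 of 2064 (3.10%), 21 genes and a median of 2. The background near any protein-coding gene was 1.05%. Blood genes were at 2.14%, naive pluripotency genes at 2.09%, endoderm genes at 2.03%, trophoblast genes at 1.70%, muscle genes at 1.58%, germ cell genes at 1.55%, Nodal signalling genes at 1.32% and liver genes at 1.11%, the last close to the background.

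The order changed when tiles beside CpG-dense low sequence were left out. Stand-alone tiles near epiblast genes were windows in 3.08% of cases (59 of 1916), near neural genes in 2.33% (39 of 1673), near naive pluripotency genes in 1.66%, near streak genes in 1.61%, near germ cell genes in 1.52%, and near trophoblast genes in 0.796%, against 0.853% near any protein-coding gene. So 43 of the 82 neural windows stood beside dense tiles, and 29 of the 88 epiblast windows. Depth differed between the lists. The median eligible tile had 68 reads near any protein-coding gene, 76 near epiblast genes, 74 near neural genes, 80 near streak genes and 66 near liver genes. Its part in these shares was not tested. The median level of all eligible tiles was 78.7% near epiblast genes, 77.1% near streak genes and 75.6% near neural genes, against 78.9% near any protein-coding gene. With the windows left out, it was 76.3% near neural genes and 79.1% near any protein-coding gene.

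**Figure D4:**
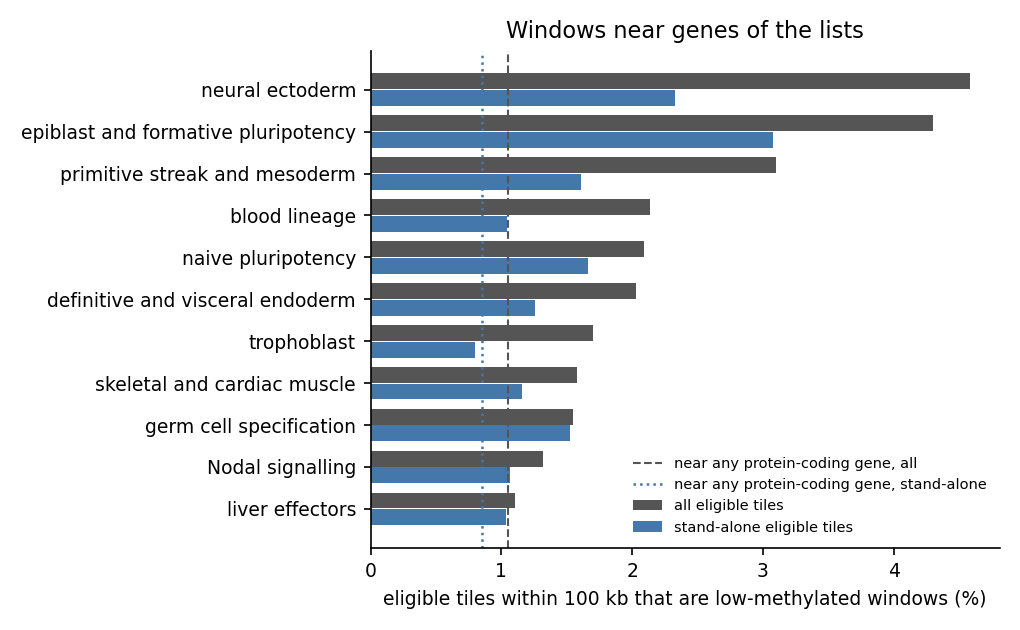
Share of eligible tiles within 100 kb of the genes of each list that are windows (%), for all eligible tiles (grey bars) and stand-alone ones (blue bars), with dashed and dotted lines for any protein-coding gene (1.05% and 0.853%). Epiblast (4.31%) and neural (4.58%) genes lead among all tiles, and epiblast genes (3.08%) among stand-alone tiles.

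Among epiblast genes, Dnmt3b had 6 windows, all stand-alone. This gene encodes a methyltransferase that adds new methylation in the early post-implantation embryo. A run of 4 adjoining windows (chromosome 2) lay upstream of the gene, at 5.41, 6.41, 7.41 and 8.41 kb, with levels of 15.6% (10 of 64 reads), 16.3% (13 of 80), 18.9% (14 of 74) and 22.7% (10 of 44). A further pair stood 37.4 and 38.4 kb upstream at 32.6% (47 of 144) and 29.4% (42 of 143). The tile that adjoined the Dnmt3b run on its far side was low too, at 23.8%, and was not eligible because it held 19 CpGs. The tile on the side of the gene was at 56.5%.

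Fgf5, the growth factor gene that marks the post-implantation epiblast, had 8 windows. The 5 windows 63.2 to 83.2 kb upstream, at 10.1% to 23.5%, stood at the neighbouring gene Prdm8, and 4 of them were beside dense tiles. Downstream of Fgf5, stand-alone windows at 33.0 and 34.0 kb were at 13% (7 of 54) and 34.0% (17 of 50), and one at 86.0 kb was at 35.2% (31 of 88).

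The windows of Otx2, a homeobox factor of epiblast and anterior neural tissue, were fewer and partly distant. A pair of adjoining stand-alone windows 85.4 and 86.4 kb upstream of Otx2 was at 23.9% (38 of 159) and 25.4% (30 of 118), and another at 83.4 kb was at 34.1% (30 of 88). The tile between the pair and the third window held 24 CpGs and was at 21.6%. It missed the 20% limit for a CpG-dense low tile narrowly, so these windows count as stand-alone only by that limit. The window 40.4 kb upstream was at 14.8% (9 of 61) and the one 2.78 kb downstream at 31.3% (31 of 99), both beside dense tiles.

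Pou5f1 had 4 windows, all stand-alone and apart from each other. Those upstream of the gene, at 19.0, 40 and 71.0 kb, were at 39.3% (33 of 84), 23.5% (36 of 153) and 19.0% (11 of 58), and one 67.2 kb downstream was at 40% (40 of 100). The interval of the last ran from 30.3% to 50.3%, past the threshold.

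**Figure D5:**
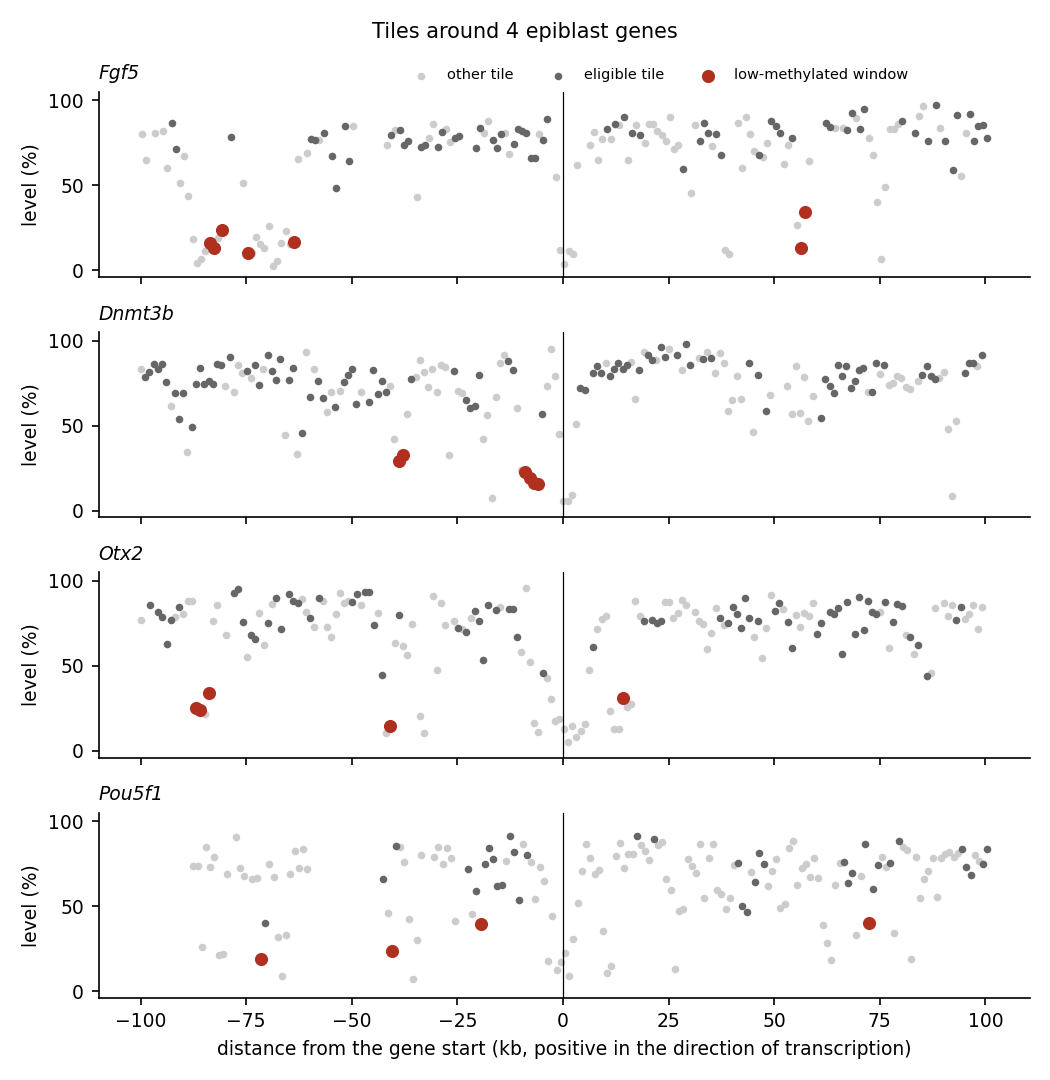
Level (%) of each 1 kb tile by distance from the gene start (kb, positive in the direction of transcription) at Fgf5, Dnmt3b, Otx2 and Pou5f1, with windows in red, eligible tiles in dark grey and other tiles in light grey. The 4 windows of the run upstream of Dnmt3b are at 15.6% to 22.7%, the windows at Pou5f1 stand one by one, and several at Fgf5 and Otx2 lie beside other low tiles.

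Other core factors of pluripotency had windows as well. Nanog had 6, and the one 3.49 kb upstream was stand-alone and at 15.4% (14 of 91 reads), while 3 downstream windows at 16.3% to 23.3% stood beside dense tiles. Sox2, which also acts in neural progenitors, had 8, of which 1 was stand-alone. Pou3f1 had 7 at 21.6% to 31.5%, of which 3 were stand-alone. Cdh1, the gene of the epithelial adhesion protein E-cadherin, had 5, all inside the gene and stand-alone, at 34.0% (35 of 103), 38.7% (36 of 93), 19.1% (21 of 110), 37.9% (36 of 95) and 29.1% (46 of 158). Zic2 and Zic5, which are neighbours, had 5 and 6, of which 5 were the same. Car4, Dppa2 and Dppa4 had none among 62, 58 and 58 eligible tiles. Of all protein-coding genes 48.8% had a window within 100 kb, so having none, here and for genes named below, was common.

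Naive pluripotency genes, which are active before implantation, had fewer windows per gene, and 16 of 17 had at least 1. All 4 windows of Fgf4 lay upstream and were stand-alone, and the nearest, at 3.39 kb, was at 38.5% (45 of 117 reads). A window inside Esrrb was at 22.3% (21 of 94) and another 35.4 kb downstream at 23.3% (14 of 60). Klf4 had 1 window, at 22.7% (17 of 75), and Zfp42 had none among 71 eligible tiles. Dppa3, a germ cell and naive gene, had 4, of which 3 were also counted for Nanog.

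Nodal signalling patterns the epiblast and is needed to form the streak. The ligand gene Nodal had 2 adjoining windows upstream, at 6.97 kb with 21% (17 of 81 reads) and at 7.97 kb with 27.5% (11 of 40). Its inhibitors Lefty1 and Lefty2 had none among 66 and 65 eligible tiles, and neither had the receptor gene Acvr1b or the signal transducer Smad3. Since only 48.8% of all protein-coding genes had a window, having none does not by itself set these genes apart. The co-receptor gene Tdgf1 had 3 and the ligand gene Gdf3 had 4, all stand-alone, and 3 of those of Gdf3 were also counted for Nanog.

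Streak genes had windows over nearly the whole range of levels. The lowest were 1 inside Isl1 at 10.6% (7 of 66 reads) and 1 lying 36.2 kb from Foxc2 at 12.3% (14 of 114). Both were beside dense tiles, and the latter lay within the span of another gene. T, the brachyury gene, had 3 upstream windows at 20% (26 of 130 reads), 35.7% (20 of 56) and 37.7% (46 of 122), the lowest of them 25.4 kb away. Eomes had 3, all 87.2 to 98.2 kb upstream and at 36.8% to 39.5%. Mesp1 had 3 stand-alone windows at 22.9%, 31.7% and 35.3%, and Mixl1 had 1. Foxa2, an endoderm and node factor, had 7 at 17.9% to 36.4%, on both sides of the gene, and Meox1 had 6, all stand-alone, the lowest at 16.4% (23 of 140). Cdx1, Fgf8, Hand1, Snai1 and Tcf15 had none.

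Windows near neural genes had a median level of 27.7%, close to the 28.2% near epiblast genes. The 12 windows of Pax7 included 4 beside dense tiles, at 11.6% (15 of 129 reads), 12.7% (15 of 118), 14.1% (12 of 85) and 15.4% (14 of 91), and 8 stand-alone ones at 18.2% to 38.4%. Sox1, an early neural plate factor, had 8 at 27.9% to 39.4%. Pax3 had 8, of which 3 were stand-alone, and the 6 windows of Pax6 were all beside dense tiles. Pou3f2 and Sox4 had none among 36 and 79 eligible tiles.

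Genes of other lineages also had windows. Gata4, an endoderm and heart factor, had 7, of which 6 lay inside the gene, the lowest at 10.9% (10 of 92 reads). The blood factor gene Lyl1 had 10 within reach, none stand-alone, and 5 of these were the cluster inside Nfix, 71.3 to 77.3 kb away. Des, the muscle desmin gene, had 6 and Casq2 5. Gata3 of the trophoblast list had 5, of which 1 was stand-alone. Germ cell genes had mostly stand-alone windows, 20 of 21, with 3 at Tfap2c at 23.9% (17 of 71), 33.3% (42 of 126) and 36.1% (30 of 83), and 3 at Prdm14 at 32.1% to 33.3%. Of liver genes, Hpx had 3, and 10 of 19 genes, Alb and Apob among them, had none. Of all protein-coding genes, 48.8% had 1 or more.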

How the data were processed

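Whole-genome bisulfite sequencing was deposited by the authors as 1 table of methylated and unmethylated read counts for each strand of each CpG, in whole-number counts without normalization. Per the submitters' processing notes, the build was mm10 and the tools were cutadapt 1.3, Bismark 0.12.5 and Bowtie2 2.1.0. The pooling of the 2 samples and any removal of duplicate reads are not described there. The depth was 133245671 read counts over 20383623 autosomal CpGs, at a level of 66.3%.

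Both strands were summed per CpG and CpGs per 1 kb tile. The read minimum of 40 left out 547634 of 1202022 distal tiles with 5 to 15 CpGs. Gene ends and symbols came from a RefSeq table of GRCm38.p6, and starts with strand from its promoter table, which was not used for chromosome 18 and does not list every gene. Neighbouring tiles were measured from 20 reads. The windows, the gene lists (11 lists, 222 genes, 214 autosomal) and the counts were chosen with earlier results of these data known, and no test was made on them. Named windows were those of the 10 largest clusters, the 10 with the lowest upper bounds, the 3 nearest each list, the 3 deepest and those at the thresholds, and other genes were chosen after their values were seen. A few items under this rule are not reported here. The bases next to CpGs and sequence motifs, which had been planned, were not analysed here, since the table holds CpG context alone and no genome was used. Python 3.11.15, numpy 2.4.6, pandas 2.3.3 and scipy 1.17.1 were used, and the tile step was tested on simulated data. Alternatives changed the read minimum, level, strand, grid, distance and CpG number.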

Additional observations from a re-analysis of the deposited data

How the results depend on the processing

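No paired analysis was possible because the table pools both samples of 1 group. The number of windows, 6418, became 3210 with 80 or more reads per tile, 2743 at 10% to 30%, 2441 with the upper bound at 40% or less and 2999 with 5 to 10 CpGs, and rose to 9390 with 20 or more reads, 8157 on the plus strand alone and 7946 on the minus strand. The share inside genes, 52.4%, became 54.8% with 80 reads, 47.8% with 20 reads, 49.9% on the plus strand alone, 49.7% on the minus strand and 49.0% for stand-alone windows. The share in clusters, 20.3%, became, in the same order of settings, 13.8%, 18.8%, 17.5%, 17.7% and 17.5%, and was 21.3% with tiles shifted by 500 bp, 16.9% at 10% to 30%, 15.4% by the upper bound and 10.2% with 5 to 10 CpGs. The median level of adjoining tiles, 62.5%, became 61.8% with 80 reads, 63.9% with 20, 63.2% on either strand, 65.6% for stand-alone windows, 63.6% at 5 kb from gene ends, 56.9% at 10% to 30%, 56.4% by the upper bound and 63.6% with 5 to 10 CpGs. The share of single CpGs above 10% and up to 40%, 50.4%, became 49.7% with 80 reads, 51.2% with 20, 48.9% by mean fractions, 46.3% on the plus strand, 46.2% on the minus strand, 53.0% at 10% to 30%, 52.7% by the upper bound and 51.6% with 5 to 10 CpGs. The median strand difference, 8.54 percentage points, became 8.04 with 80 reads, 10.6 on either strand's own selection, 7.67 at 10% to 30%, 7.53 by the upper bound and 9.05 with 5 to 10 CpGs.

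The share near epiblast genes, 4.31%, became 3.23% with shifted tiles, 2.30% at 10% to 30%, 2.20% by the upper bound, 3.28% with 5 to 10 CpGs, 5.64% within 50 kb, 2.99% within 200 kb and 3.08% for stand-alone tiles. Beside it, the share near any protein-coding gene was 1.06%, 0.454%, 0.407%, 0.828%, 1.06%, 1.02% and 0.853%, lower in each. The 50 kb, 200 kb and stand-alone settings were chosen after seeing the data. With the deepest CpGs removed, each of the 7 values moved by less than its counting error.

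With a median of 80 reads, a window's interval spans about 20.8 percentage points, so many windows near 40% cannot be placed on either side of the threshold. Spread between embryos cannot be given from 1 pooled table, and CpGs of 1 read are not independent. Distance alone ties a window to a gene.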
